A study of Rattus norvegicus with 6 samples.

Results

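The genes described here belong to the bone morphogenetic protein (BMP) and transforming growth factor beta (TGF-beta) pathway in the lateral ventricular choroid plexus of the Sprague-Dawley rat. Untreated control animals of 2 ages were compared, embryonic day 15 (E15) and adults of 6 weeks, with 3 pools sequenced at each age and the plexuses of 10 animals in each pool. The plexus was taken whole, so a pool held vessels and stroma as well as epithelium. The deposited table of genes that the authors had called different between the ages was searched for symbols of this pathway, and 40 genes were found among the 10093 that it names (29479 identifiers in the count table). The members were therefore chosen by the age difference itself, and their differences between E15 and adult are given below as descriptions with standard errors, without any p-value. Pathway genes outside that table have no symbol here and were not analysed here.

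BMPs, growth differentiation factors (GDFs), activins, nodal and TGF-betas are secreted dimers that bind pairs of type I and type II serine/threonine kinase receptors. The active type I receptor phosphorylates receptor-regulated SMAD proteins, SMAD1, SMAD5 and SMAD9 for BMPs and SMAD2 and SMAD3 for TGF-beta and activin, which enter the nucleus with SMAD4. Noggin, chordin, follistatin and related proteins hold ligands outside the cell, while SMAD6, SMURF1 and BAMBI dampen the signal at the receptor or inside the cell. In the dorsal midline of the embryonic telencephalon, BMP signalling is required for the choroid plexus epithelium to form.

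Library totals lay between 17875089 and 19204440 counts. Counts are raw reads per gene, and normalised counts are these scaled by TMM, which sets libraries level on the bulk of their genes, to a common library of 19267327 counts. A log2 fold change is positive where expression was higher at E15 and comes from edgeR's quasi-likelihood fit over all genes tested. Of 8 epithelial marker genes that could be named (11 were listed), transthyretin (*Ttr*) among them, all 8 were called higher in the adult, with summed normalised counts of 437806 to 542287 at E15 and 3986053 to 4922980 in the adult. Most of this sum came from *Ttr*, with means of 445731 at E15 and 3995247 in the adult. Markers too had to be named in the deposited table, so all had already been called different by the authors. The sums here and the medians below therefore describe genes chosen by this same contrast. Named markers of other cells differed as well. The 6 named endothelial markers (of 8) summed to 7079 to 9704 normalised counts at E15 and 609 to 1028 in the adult, and the 7 mesenchymal ones (of 7) to 42047 to 55813 and 15930 to 16544, with *Dcn* and *Pdgfra* higher in the adult and the other 5 at E15. For developing neurons (7 of 8 named) the sums were 1499 to 4229 and 128 to 464, and for neural progenitors (6 of 7) 27641 to 29600 and 2404 to 3383. Most of the progenitor sum at E15 came from *Vim*, with means of 25394 at E15 and 1214 in the adult. *Sox2* and *Pax6* were only 1.93- and 1.81-fold higher at E15. *Fabp7*, *Hes5* and *Neurog2*, with fewer counts, were higher at E15 by larger folds than these. Erythroid markers (2 of 6 named) summed to 949 to 1362 and 58.1 to 94.8, genes of dividing cells (3 of 6) to 5603 to 6242 and 70.1 to 78.3, macrophage genes (3 of 6) to 1026 to 1264 and 938 to 1132, and oligodendrocyte genes (5 of 6) to 850 to 1008 and 1794 to 7201, highest in adult replicate 1. Within the last 2 lists *Csf1r* and *Mog* were called higher at E15 and the other genes in the adult. None of these markers was at 0 in all pools of an age. In such whole tissue fewer cells of a type and less RNA per cell cannot be told apart, and the part of the cell mixture in the values below was not tested.

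Of the 40 genes, 38 passed the filter of more than 10 counts over the 6 libraries. With a Benjamini-Hochberg adjusted p under 0.05, 25 of these were called higher at E15 and 12 higher in the adult, where 34.7% and 29.3% of all 16643 genes tested were called in these directions and 64.0% in either. Normalised counts of the 3 E15 pools and the 3 adult pools did not overlap for any of the 38 genes, compared with 70.1% of all genes. Since the same contrast had selected the members, nothing is read from these shares. Of the called members, 23 differed by over 2-fold in favour of E15 and 10 in favour of the adult. Among all 16643 genes tested, 4140 and 2979 were called with such differences, and nothing is read from these counts either. The median log2 fold change was 1.68 over the 38 genes against 0.14 over all genes tested. The least separated called members were *Fst* and *Amhr2*, and the tested gene just outside the threshold was *Bmper*, with a log2 fold change of 1.35 ± 0.59 (SE). Without E15 replicate 1, which is set against the other E15 pools below, 24 and 11 were called.

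**Figure D1:**
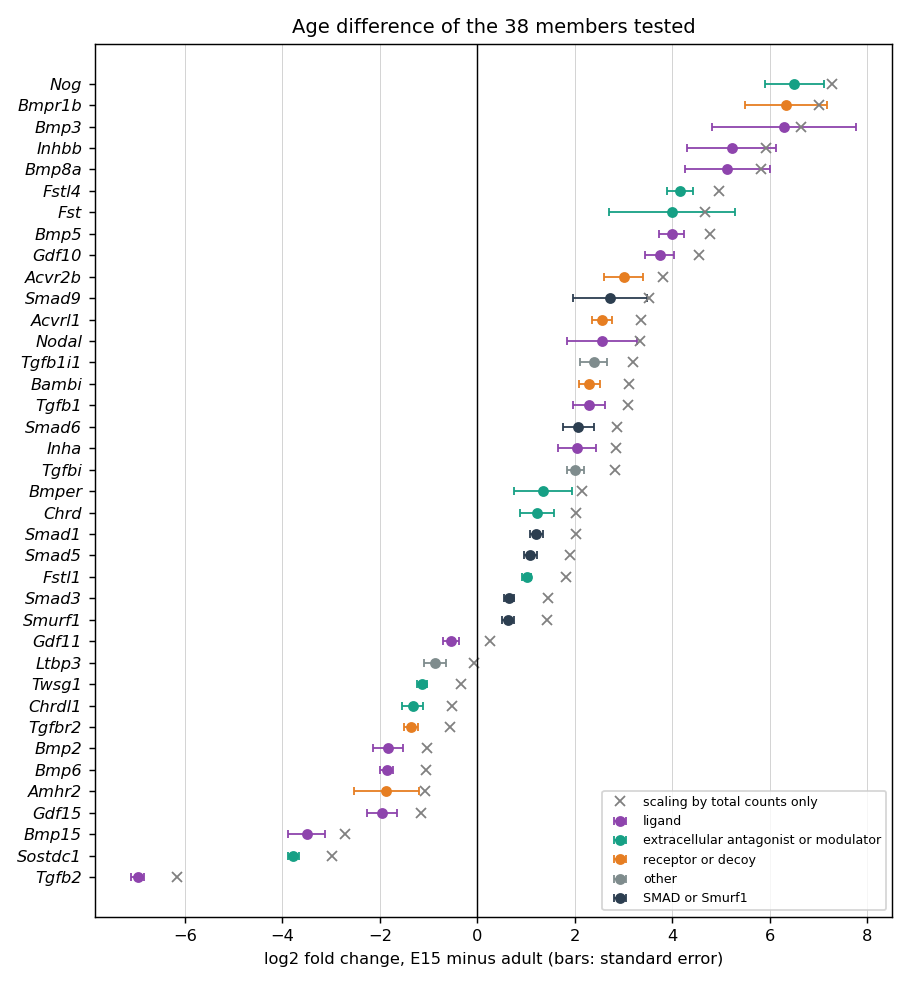
Log2 fold change of each of the 38 members tested, E15 minus adult, with its standard error, coloured by role, and the same value under scaling by total counts only (crosses). *Nog* is the highest at 6.51 and *Tgfb2* the lowest at -6.97, and only *Gdf11* changes sign with the scaling.

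The DNA just before a gene's start carries part of its control. Windows of 300 bases, from 250 before to 50 after the annotated start, were found for 33 of the 40 genes in a RefSeq table of build GRCr8 by symbol. Their median GC content was 67.7%, compared with 51.7% over all 33469 windows of that table, and it ranged from 35.3% for *Bmp5* to 84.3% for *Inhbb*. Members had 1 window each, whereas the windows of the whole table were not reduced to 1 per symbol or matched by gene type. The GC-rich box GGCGCC, which holds letters that SMAD proteins can contact, was found on 11 of the 33 windows (33.3%) and on 11.0% of all windows, and the shorter SMAD box CAGAC on 13 (39.4%, against 50.1%), both strands read. Both motifs are short, and the first is made of G and C alone. The longer palindrome GTCTAGAC was in 0 of the 33 and in 0.197% of all. Of the windows with GGCGCC, 9 belonged to genes called higher at E15 (of 20 with a window) and 1, that of *Twsg1*, to a gene called higher in the adult (of 10), and the remaining one was that of *Bmper*. The median GC content of these 20 and 10 windows was 68.5% and 59.0%. A match is a match of letters only, and binding was not measured. Windows are shown for the members with the largest fitted log2 fold change in favour of the adult (*Tgfb2*) and of E15 (*Nog*), for the decoy receptor *Bambi*, and for *Bmp5*, whose window has the lowest GC content. They are written 5′ to 3′ on the strand of the gene, and capitals mark GGCGCC and CAGAC (or its complement GTCTG).
*Tgfb2* (chr13:100792636-100792935, minus strand, 59.0% GC): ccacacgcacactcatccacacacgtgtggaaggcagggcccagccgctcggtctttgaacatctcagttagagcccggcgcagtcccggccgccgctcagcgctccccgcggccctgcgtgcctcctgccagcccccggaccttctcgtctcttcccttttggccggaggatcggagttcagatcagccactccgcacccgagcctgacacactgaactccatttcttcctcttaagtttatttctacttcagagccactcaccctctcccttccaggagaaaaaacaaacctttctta
*Nog* (chr10:74627452-74627751, minus strand, 73.0% GC): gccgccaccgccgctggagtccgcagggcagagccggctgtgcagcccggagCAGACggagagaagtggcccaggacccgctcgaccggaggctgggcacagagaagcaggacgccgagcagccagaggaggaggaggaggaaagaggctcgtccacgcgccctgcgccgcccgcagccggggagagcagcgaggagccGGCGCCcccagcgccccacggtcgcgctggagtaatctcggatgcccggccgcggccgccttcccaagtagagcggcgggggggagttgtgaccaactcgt
*Bambi* (chr17:58820954-58821253, minus strand, 70.3% GC): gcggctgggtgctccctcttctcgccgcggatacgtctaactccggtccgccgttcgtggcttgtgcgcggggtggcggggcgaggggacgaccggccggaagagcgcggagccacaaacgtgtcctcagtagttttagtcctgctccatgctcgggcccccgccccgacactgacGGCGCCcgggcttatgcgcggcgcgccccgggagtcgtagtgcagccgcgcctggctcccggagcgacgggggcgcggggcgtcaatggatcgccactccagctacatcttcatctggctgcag
*Bmp5* (chr8:85397379-85397678, plus strand, 35.3% GC): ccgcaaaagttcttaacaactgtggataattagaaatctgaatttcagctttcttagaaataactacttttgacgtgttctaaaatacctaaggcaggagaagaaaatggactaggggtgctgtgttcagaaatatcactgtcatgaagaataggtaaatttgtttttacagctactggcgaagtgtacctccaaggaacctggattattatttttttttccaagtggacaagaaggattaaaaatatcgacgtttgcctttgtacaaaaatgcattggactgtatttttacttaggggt
The windows of *Tgfb2* and *Bmp5* hold neither motif, *Nog* holds 1 match of each, and *Bambi* 1 of GGCGCC.

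Ligands were the largest group, with 15 genes, of which 8 were called higher at E15, 6 higher in the adult and 1 was too sparse to test. The difference of largest size in either direction was that of *Tgfb2* (ENSRNOG00000002418), which encodes TGF-beta 2. It had 133, 118 and 114 normalised counts in E15 replicates 1, 2 and 3, and 13993, 15877 and 15999 in the adult replicates. Every adult pool was over 100 times above every E15 pool, and replicates of an age were close to each other. The log2 fold change was -6.97 ± 0.13 (SE), or 126-fold in favour of the adult. The epithelial markers above, also higher in the adult, had a median log2 fold change of -2.79 over 8 genes. *Tgfb1*, a ligand of the same receptors that is made by many cell types, went the other way, with 229, 476 and 334 normalised counts at E15, compared with 48.1, 94.8 and 67.3 in adult pools (4.92-fold higher at E15). The third ligand of this kind, *Tgfb3*, was not analysed here.

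Among the BMPs, *Bmp6* (ENSRNOG00000013717), known also for its part in iron balance, had 626, 759 and 795 normalised counts at E15 against 2396, 2642 and 2891 in the adult, 3.64-fold in favour of the adult. *Bmp2*, one of the best studied members, followed with 44.2, 25.4 and 38.4 against 110.4, 116 and 161 (3.57-fold). *Bmp15*, best known as a factor of the oocyte, was sparse at both ages, with 5.73, 5.39 and 7.84 normalised counts in the E15 pools, whereas the adult pools had 59.5, 70.1 and 89.3 (log2 fold change -3.50 ± 0.38). For these 3 ligands all adult pools lay above all E15 pools.

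*Bmp5* (ENSRNOG00000010917) went in the opposite direction from *Bmp6*, a close relative, with 616, 578 and 445 normalised counts in the embryonic pools against 21.2, 39.0 and 42.6 in adults (15.8-fold higher at E15, log2 fold change 3.99 ± 0.26). *Gdf10*, also named BMP3B, had 191, 321 and 277 in the embryo, versus 22.7, 16.9 and 19.2 in adults, a 13.4-fold difference. Its nearest relative *Bmp3*, which lacks the bone-forming activity of other BMPs, had 6, 11 and 20 raw counts at E15, compared with 0 in adult pools. At a floor of 3 counts over the adult pools it was at least 7.16-fold higher at E15, with a bound of 4.96 without E15 replicate 3 and of 4.66 without adult replicate 2. *Bmp8a* had 20, 29 and 28 raw counts at E15 and a single count in the adult, so that the ratio was 44.7 (95% interval 7.79 to 1789). Leaving out adult replicate 1, the pool with this read, gave a bound of at least 10.1-fold. The intervals cover counting error only. A bound, here and below, sets the lower age at the floor and takes the count of the higher age as exact. The counting error of that higher count is therefore not covered by a bound.

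Of the remaining GDFs, *Gdf15*, a stress-induced member, was higher in the adult, with 54.8, 114 and 148 normalised counts at E15 against 422, 406 and 411 in the adult. The adult pools differed by a coefficient of variation of 1.94%, whereas at E15 it was 44.7%, with replicate 1 the lowest. *Gdf11*, a regulator of axial patterning and of neuron number, had the smallest difference of all members tested, with 247, 349.6 and 346 normalised counts in the E15 pools, whereas the adult pools had 433, 482 and 453 (log2 fold change -0.54 ± 0.17). Its direction depended on the scaling, since with total counts only it was higher at E15 (log2 fold change 0.27) and not called. Nor was it called with upper quartile scaling (-0.41) or with totals without the 10 top genes (-0.07).

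The activin and nodal ligands were sparse. *Inha*, the inhibin alpha chain, which turns an activin dimer into its antagonist inhibin, had 53.2, 128 and 100.4 normalised counts in the embryo, versus 19.8, 27.3 and 20.6 in adults. *Inhbb*, the activin beta B chain, had 19, 24 and 39 raw counts at E15, compared with 1 in adult pools. Its ratio was 47.6 (95% interval 8.31 to 1904), and the bound with adult replicate 1 left out was at least 10.8-fold. *Nodal*, the ligand that patterns the early embryo, had 31, 39 and 33 raw counts at E15 against 3, 7 and 0 in the adult (5.88-fold). It was 3.90-fold higher without adult replicate 3, and without adult replicate 2 the ratio was 13.0 (95% interval 4.32 to 63.9). *Inhbe* had 6, 2 and 0 raw counts in the embryo and none in any adult pool, which is at least 1.55-fold higher at E15 (at least 1.01-fold without adult replicate 2, and at least 2.33-fold without E15 replicate 3). With 8 counts in all it was not tested, and 2 counts, too few for a bound, remained without E15 replicate 1.

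**Figure D2:**
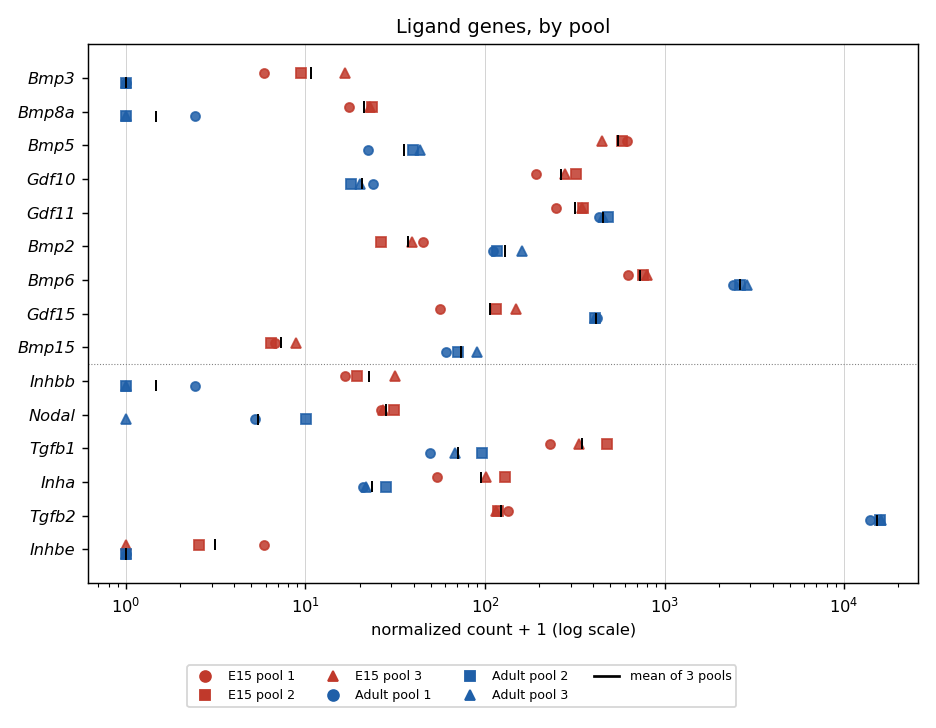
Normalised counts (plus 1, log scale) of the 15 ligand genes in each pool, with the mean of the 3 pools of an age as a bar. Within each block, genes run from the highest to the lowest log2 fold change with the untested *Inhbe* last, and *Tgfb2* shows the widest gap, from 122 at E15 to 15290 in the adult on average.

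The receptors were split between the ages. *Tgfbr2* (ENSRNOG00000013265), the type II receptor for TGF-betas, had 863, 1238 and 1159 normalised counts in the embryo, versus 2656, 2955 and 2762 in adults, and was thus higher at the age at which *Tgfb2* was higher (2.57-fold). *Acvrl1* (ENSRNOG00000028713), the type I receptor ALK1 of vascular endothelium, had 609.8, 953 and 762 at E15, compared with 118, 121 and 155 in adult pools (5.91-fold higher at E15). The endothelial markers above differed in the same direction, with a median log2 fold change of 3.01 over the 6 genes, against 2.56 ± 0.20 for *Acvrl1*, and their part in its value was not tested. *Acvr2b*, a type II receptor shared by activins, nodal and some BMPs, had 205, 323 and 333 normalised counts at E15 against 52.4, 14.3 and 41.2 in the adult, an 8.01-fold difference.

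*Bmpr1b*, a type I receptor for BMPs, was almost absent from the adult pools, with a single raw count in adult replicate 3 beside 85, 39 and 51 in the embryo. The ratio was 102 (95% interval 18.0 to 4037), or at least 22.7-fold higher at E15 without that pool. Its count was highest in E15 replicate 1, in which the summed markers of developing neurons were highest too (4229 normalised counts, against 1499 and 3270 in replicates 2 and 3), as were the genes of dividing cells (6242, against 5603 and 6104). Of the progenitor genes, *Sox2*, *Pax6* and *Fabp7* were highest in that pool as well, *Vim* was lowest, and *Hes5* and *Neurog2* lay between. The part of any of these was not tested. *Amhr2*, the receptor of anti-Müllerian hormone, had 4, 9 and 8 raw counts in the embryo, versus 9, 8 and 28 in adults, and most of its adult reads came from replicate 3. Its fold of 3.66 in favour of the adult fell to 2.11 without that pool, where it was not called. Nor was it called when any single E15 pool was left out, with folds of 3.07 to 4.20. *Acvr1c*, a receptor for nodal and activins, had 0 counts at E15, compared with 0, 5 and 2 in adult pools, at least 4.02-fold higher in the adult over the 3 pools and, without adult replicate 1, at least 5.91-fold. With 7 counts it was not tested, without adult replicate 2 only 2 were left, and without single E15 pools the bound was 2.64 to 2.72. *Bambi*, a decoy that resembles a type I receptor without its kinase and is itself induced by BMP signals, had 589, 720.0 and 730.1 normalised counts at E15 against 105, 127 and 181 in the adult (4.93-fold higher at E15).

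Extracellular antagonists and modulators counted 9 members, with 5 called higher at E15, 3 in the adult and 1 not called. *Sostdc1* (ENSRNOG00000005770), a secreted antagonist of BMPs that also acts on Wnt signalling, had 7007, 6077 and 6259 normalised counts in the E15 pools, whereas the adult pools had 82227, 92573 and 90575. This is a 13.7-fold difference (log2 fold change -3.78 ± 0.11), with replicates within 7.65% (coefficient of variation) at E15 and 6.20% in the adult. *Twsg1*, which binds both BMPs and chordin, was also higher in the adult, with 11003, 9147 and 9401 in the embryo, versus 20641, 21492 and 22657 in adults, a log2 fold change of -1.13 that came to -0.33 with total counts only. *Chrdl1*, a chordin-like BMP antagonist, had 68.8, 63.9 and 76.1 normalised counts at E15, compared with 189.7, 171 and 163 in adult pools (2.51-fold).

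*Nog* (noggin, ENSRNOG00000023683), which blocks the receptor contacts of BMPs, showed the largest fitted log2 fold change in favour of E15, with *Bmpr1b* and *Bmp3* within its standard error. Its raw counts were 159, 335 and 335 at E15 against 0, 4 and 1 in the adult, with a log2 fold change of 6.51 ± 0.60. Adult replicate 2 held 4 of the 5 adult counts, and leaving it out gave a ratio of 313 (95% interval 56.1 to 12389), in place of a fitted fold of 91.0. The summed endothelial, mesenchymal, erythroid, neuronal, progenitor and macrophage markers were also highest in that adult pool, the mesenchymal ones only slightly (16544, against 15930 and 16039). The progenitor sum followed *Vim* (1850, against 777 and 1014), with *Fabp7* and *Hes5* also highest there and *Pax6* lowest. The part of these lists in the value was not tested. At E15 *Nog* was lowest in replicate 1, where the summed markers of neurons and of dividing cells were highest. The epithelial, endothelial, mesenchymal, erythroid, progenitor and macrophage sums were lowest in that pool. The progenitor sum followed *Vim*, whereas *Sox2*, *Pax6* and *Fabp7* were highest in that pool and *Hes5* and *Neurog2* lay between. The part of any list was not tested. *Chrd* (chordin), another binder of BMPs, had 54.0, 126 and 98.0 normalised counts in the E15 pools, whereas the adult pools had 39.6, 36.4 and 42.6. Its 2.34-fold difference was 1.92-fold, and not called, without E15 replicate 2.

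Follistatin-type genes were higher at E15. *Fstl1*, a secreted glycoprotein of mesenchyme, had 11449, 11881 and 10435 normalised counts in the embryo, versus 5359, 5746 and 5584 in adults, a 2.02-fold difference with tight replicates. *Fstl4* had 386, 477 and 522 at E15, compared with 17.0, 33.8 and 26.1 in adult pools (17.8-fold, log2 fold change 4.16 ± 0.26). *Fst*, follistatin itself and a tight binder of activins, had 23, 4 and 7 raw counts at E15 and 1 in adult replicate 3. The ratio was 19.7 (95% interval 3.31 to 803). This rested on single pools. It became 9.42 (95% interval 1.37 to 406) without E15 replicate 1, 13.4 (95% interval 2.25 to 545) without adult replicate 1 and 12.9 (95% interval 2.16 to 522) without adult replicate 2, and in none of these was *Fst* called. Leaving out adult replicate 3 gave a bound of at least 4.41-fold. *Bmper*, a chordin-related modulator first described in endothelial cells, had 26, 21 and 15 raw counts at E15 against 7, 5 and 2 in the adult. It was not called, and was called higher at E15 with the exact test on a common dispersion and with both scalings by totals.

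The 4 receptor-regulated SMADs, *Smad6* and *Smurf1* were called higher at E15, as 34.7% of all genes were, and each kept this direction with every scaling tried. The contrast itself had selected these 6 genes, and other intracellular regulators given below were higher in the adult. *Smad1* (ENSRNOG00000018483) had 1107, 913 and 856 normalised counts in the embryo, versus 429, 384 and 426 in adults, and *Smad5* had 2032, 1629 and 1543 against 818, 784 and 846. These BMP-responsive SMADs differed by 2.32- and 2.13-fold. *Smad9*, the third of that class, had few reads, with 16, 72 and 65 raw counts at E15, compared with 9, 2 and 2 in adult pools. Its fitted fold of 6.60 became 14.0 without adult replicate 1, the pool in which the oligodendrocyte markers summed to 7201 normalised counts, against 2967 and 1794 in adult replicates 2 and 3. The epithelial sum was highest there too, mostly through *Ttr*. *Folr1*, *Aqp1* and *Krt8* were also highest there, *Kl* and *Slc4a5* were lowest, and *Clic6* and *Kcnj13* lay between. The part of neither list was tested. *Smad3*, which answers TGF-beta and activin, had 1621, 1765 and 1748 normalised counts at E15 against 995, 1106 and 1158 in the adult, a difference of 1.57-fold. *Smad2*, *Smad4* and *Smad7* were not analysed here.

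*Smad6* (ENSRNOG00000009173), an inhibitory SMAD that BMP signals induce and that is abundant in endothelium, had 376, 938 and 841 normalised counts in the E15 pools, whereas the adult pools had 149, 179 and 184 (4.21-fold). E15 replicate 1 lay well below the other E15 pools but still above every adult pool. The ubiquitin ligase *Smurf1*, which removes BMP SMADs, had 974, 1150 and 1099 in the embryo, versus 677, 627 and 781 in adults (1.55-fold). The other 3 members act around the ligands or downstream. *Ltbp3*, which tethers latent TGF-beta in the matrix, had 1175, 2376 and 2201 normalised counts at E15, compared with 3524, 3693 and 3295 in adult pools (log2 fold change -0.87 ± 0.23), a difference that came to -0.06 with total counts only and to -0.40 with totals without the 10 top genes, and was called with neither. *Tgfbi*, a matrix protein induced by TGF-beta, had 479, 641 and 619.5 at E15 against 149, 152 and 130.5 in the adult, and *Tgfb1i1*, a focal adhesion adaptor induced by TGF-beta 1, had 195, 286 and 296 against 45.3, 63.6 and 38.5. Both were higher at E15, 4.03- and 5.24-fold, as were the summed mesenchymal markers.

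**Figure D3:**
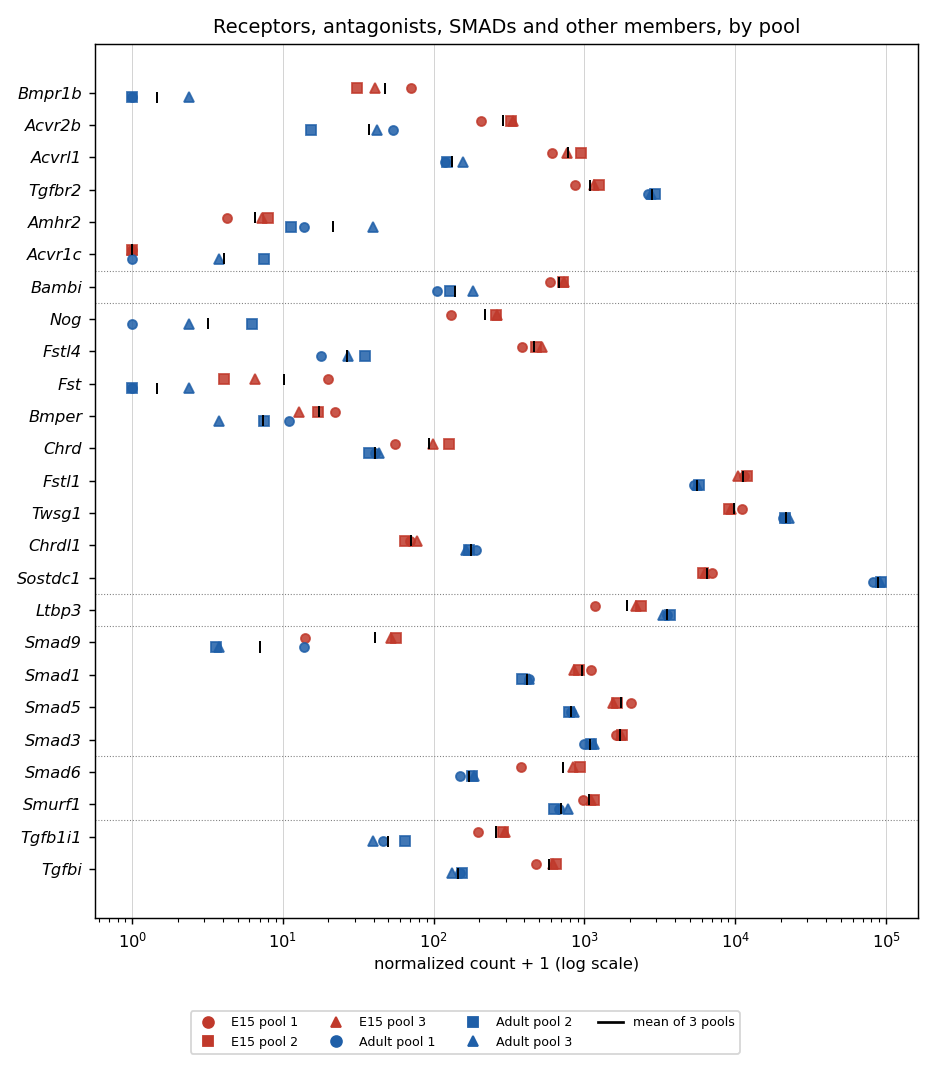
Normalised counts (plus 1, log scale) of the 25 receptors, antagonists, SMADs and other members in each pool, with the mean of the 3 pools of an age as a bar and dotted lines between roles. *Sostdc1*, *Twsg1*, *Chrdl1*, *Tgfbr2* and *Ltbp3* lie to the right in the adult, whereas the 4 receptor-regulated SMADs, *Smad6* and *Smurf1* lie to the right at E15.

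Spread between replicates differed between the ages. Over the 25 members with a mean above 100 normalised counts in all pools, the median coefficient of variation was 15.2% at E15 and 8.04% in the adult, close to the 13.6% and 8.35% over all 11003 genes above that mean. E15 replicate 1 was set against the other E15 pools. The log2 ratio of its normalised count to the mean of E15 replicates 2 and 3 was under -0.5 for 8 of the 25 members (32.0%) and for 15.0% of the 11003 genes. Its median was -0.37 over the members and -0.01 over all these genes, and it was below 0 for 18 of the 25. It was lowest for *Gdf15* (-1.25) and *Smad6* (-1.24), followed by *Nog*, with 130.1 normalised counts against 258 and 263, *Ltbp3* (-0.96) and *Tgfb1* (-0.82). For *Smad5*, *Smad1* and *Bmp5* it was positive, at 0.36, 0.32 and 0.27. Without replicate 1 no fold of these 8 genes moved by over 1.5 times and none lost its call. The epithelial, endothelial, mesenchymal, erythroid, progenitor and macrophage marker sums were also lowest in that E15 pool. The progenitor sum followed *Vim* (23120 normalised counts, against 26945 and 26117 in replicates 2 and 3). *Sox2* (2876, against 1924 and 1852), *Pax6* (785, against 431 and 582) and *Fabp7* (710, against 176 and 452) were highest in replicate 1. *Hes5* and *Neurog2* lay between the other E15 pools. The neuronal and dividing-cell sums of replicate 1 were the highest, and the part of this cell mixture in the ratios was not tested.

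**Figure D4:**
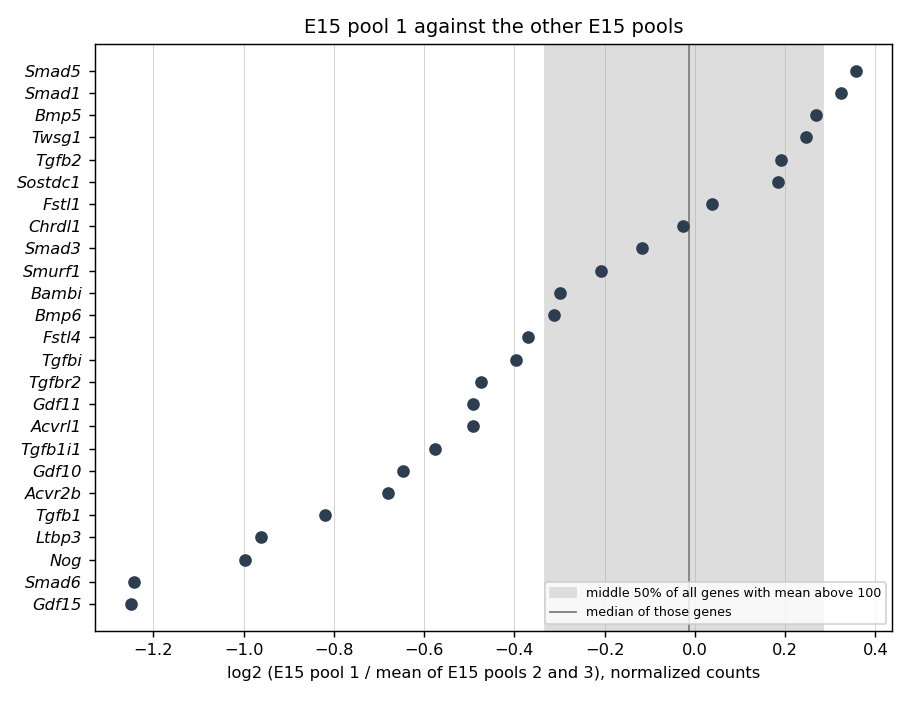
Log2 ratio of the normalised count in E15 replicate 1 to the mean of E15 replicates 2 and 3 for the 25 members with a mean above 100, with the middle 50% of all 11003 such genes in grey. The members run from -1.25 (*Gdf15*) to 0.36 (*Smad5*), and 8 lie below -0.5.

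Other genes of the pathway were taken from lists by role, 82 genes that are not members, of which 27 could be named. These names come from the same deposited table, so they too had been called by the authors. Here 17 were called higher at E15, 8 in the adult and 2 were not called, where 34.7% and 29.3% of all genes tested were called in these directions. Among genes that hold or release latent TGF-beta, the integrin chains *Itgb6* and *Itgb8*, which activate it on epithelia and other cells, were higher in the adult. *Itgb6* had 133, 80.9 and 102 normalised counts in the E15 pools, whereas the adult pools had 3802, 3706 and 4020 (36.6-fold), and *Itgb8* had 354, 261 and 239 against 8696, 8612 and 11069 (33.2-fold). Their partner chain *Itgav* had 868 ± 131 and 2152 ± 76.1 (SD, n = 3 pools each). The docking protein *Lrrc32*, with 331 ± 99.7 at E15 and 14.4 ± 5.15 in adults, and the microfibril gene *Fbn1*, with 2378 ± 412 and 959.7 ± 104, were higher at E15. Its relative *Fbn2* had 1693, 3095 and 2446 raw counts in the embryo, versus 1, 2 and 0 in adults. This gives a ratio of 1401 (95% interval 479 to 6793), and of 2734 (95% interval 491 to 107994) without adult replicate 2.

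Of the antagonists outside the member list, *Grem1*, *Sost*, *Kcp*, *Chrdl2* and the chordin-cleaving proteases *Tll1* and *Tll2* were called higher at E15. *Sost* (sclerostin) had 26, 52 and 67 raw counts at E15, compared with 0 in adult pools, at least 28.1-fold. Gremlin 1 had 72, 161 and 140 and, in the adult, 8 counts, all in replicate 3, with a fitted fold of 26.0, of 16.8 without adult replicate 2 and of at least 48.4 without adult replicate 3. *Tll1* had 1604 ± 146 and 137 ± 62.5 normalised counts (SD, n = 3 pools each), and *Tll2* a ratio of 58.1 (95% interval 15.9 to 483). Both adult reads of *Tll2* came from replicate 2, and leaving this out gave a bound of at least 25.2-fold. *Kcp*, a chordin-like modulator, had 292 ± 121 and 78.3 ± 23.7 normalised counts at the 2 ages. *Chrdl2*, with 14 counts at E15 against 0 in the adult, was at least 2.71-fold higher at E15. The call was lost with DESeq2, with a replicate block and when any single adult pool was left out (at least 1.76-fold without adult replicate 2), and 6 counts remained without E15 replicate 3 (at least 1.75-fold, not tested).

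Target genes of the pathway differed among themselves. *Id1* and *Id3*, inhibitors of differentiation that BMP SMADs induce, had 2085 ± 378 and 2015 ± 517 normalised counts at E15, against adult means of 752 ± 157 and 389.9 ± 100.4 (SD, n = 3 pools each), 2.77- and 5.17-fold higher at E15. *Id2* went the other way by 1.54-fold, and was higher at E15 by a log2 fold change of 0.19 with total counts only. The homeobox targets parted as well, with *Msx1* at 2677 ± 189 and 19429 ± 946 (7.26-fold higher in the adult) and *Msx2* at 1707 ± 21.2 and 672 ± 83.2 (2.54-fold higher at E15). *Ctgf*, *Atoh8* and *Hey1* were higher at E15 by 4.73-, 2.78- and 3.16-fold, the last by 5.09-fold without adult replicate 2. *Junb*, an early response gene, was not called, with a log2 fold change of 0.99 ± 0.39 (SE), and was called higher at E15 without E15 replicate 1 (2.52-fold), with DESeq2, the exact test, no filter, upper quartile scaling and both scalings by totals.

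Intracellular regulators were divided too. *Pmepa1*, a TGF-beta-induced inhibitor of SMAD2 and SMAD3, had 819 ± 119 normalised counts at E15 against 5655 ± 563 (6.90-fold higher in the adult), whereas the corepressor *Tgif1* had 544 ± 62.8 and 41.6 ± 6.73 (SD, n = 3 pools each), 13.0-fold higher at E15. The ubiquitin ligase *Wwp1* was 3.87-fold higher in the adult and *Nedd4l* 1.73-fold higher at E15. The phosphatase *Ppm1a* was 1.74-fold higher in the adult and at a log2 fold change of 0.0053, not called, with total counts only.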

How the data were processed

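The authors trimmed the reads, mapped these with Bowtie 0.12.7 (rat assembly of Ensembl release 61) and discarded those without a unique place. HTSeq 0.4.7p4 then counted the others per nuclear gene. The deposited values are these raw counts per gene, 1 library for each of 6 pools, with no normalization, and 0 columns were left unmapped. Reads from near-identical copies were lost by that mapping, and whether counting used strand is not given in the sources used here. The second deposited table holds the authors' own comparison (log2 fold change, abundance and p-values from edgeR 2.4.0), of which only names and descriptions were used. *Grem1* and *Chrdl2* were named from its descriptions.

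Ages were compared with edgeR 4.0.16 (TMM factors, glmQLFit and glmQLFTest, R 4.3.3) on genes with more than 10 counts, with Benjamini-Hochberg adjustment over 16643 genes. A standard error is the log2 fold change divided by the square root of its F. The alternatives were the scalings RLE, upper quartile, total counts and total counts without the 10 top genes, no filter, filterByExpr, DESeq2 1.42.0, limma-voom (limma 3.58.1), the exact test with a common dispersion (the authors' test), a replicate block and leaving out each library. A p measures only the spread between these pools, and whether pools of an age shared litters is not given in the sources used here.

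The members and lists were chosen with earlier results of these data known. Values in each pool were given for ligands, receptors, antagonists and SMADs with an absolute log2 fold change above 1 and a mean above 100 normalised counts at the higher age, for members with 0 to 3 counts at an age, and for the 5 with the most counts. Other members were given as examples or by range. Transcript lengths were not used here, so levels of different genes were not compared. The values of 1 listed target gene are not reported here.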

Additional observations from a re-analysis of the deposited data

How the results depend on the processing

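The number of members called was 25 at E15 and 12 in the adult. It lay between 23 and 26 and between 9 and 12 over all alternatives tried, including 24 to 25 and 11 to 12 with single libraries left out. Scaling was the choice with the widest effect. With total counts only the median over all genes went on the log2 scale from 0.14 to 0.94, and 9799 genes were called at E15 and 2292 in the adult (81.0% of calls at E15, compared with 54.2% of 5773 and 4879). Without the 10 top genes in the totals the median was 0.60, and 3196 genes were called in the adult (71.6% of calls at E15). Total counts only reversed *Gdf11* (log2 fold change 0.27), *Id2* (0.19) and *Ppm1a* (0.0053). *Ltbp3* and *Amhr2* were then not called. Same-numbered pools of the 2 ages deviated from their age means with correlations of -0.01, -0.01 and -0.04. With 3 pools at each age such values cannot exclude a shared batch, and whether equal numbers mark paired pools stays unknown. With a replicate block 5320 genes were called at E15 and 4608 in the adult, 25 and 11 of the members and 41 and 19 of the 67 named pathway genes, in place of 42 and 20. The genes lost were *Amhr2* and, outside the members, *Chrdl2*, which DESeq2 did not call either. *Gdf11* was not called with upper quartile scaling (-0.41) or without the 10 top genes (-0.07). Counts of 3 or fewer at an age limit *Bmp3*, *Bmp8a*, *Inhbb*, *Bmpr1b*, *Fst*, *Acvr1c* and *Inhbe* to bounds and wide intervals.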
